A study of Mus musculus with 8 samples.

Results

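Apolipoproteins are the proteins that ride on lipoprotein particles and give them their structure and their ligands, and the liver makes most of those in plasma. A set of 10 of their genes and of genes that build the particles was followed here in liver RNA. The genes were chosen by name: *Apob*, *Mttp*, *Apoa1*, *Apoa2*, *Apom*, *Apoa4*, *Apoa5*, *Apoc3*, *Apoe* and *Apoh*. All 10 were found among the 52636 genes of the count tables, and all 10 were among the 15248 genes that passed the filter on low counts and were tested.

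The livers came from 8 wild-type male C57BL/6J mice, 4 given AAV8-GFP and 4 given AAV8-AGXT. The vector, an adeno-associated virus of serotype AAV8 with a preference for liver, carried either GFP, a fluorescent protein, or human AGXT, the peroxisomal enzyme that turns glyoxylate into glycine, under the TBG promoter, which is active in hepatocytes. Mice were injected at 7 weeks of age and started a diet rich in fat, cholesterol and fructose, which induces metabolic dysfunction-associated steatohepatitis (MASH), at 8 weeks of age. Livers were taken after 24 weeks on the diet, so virus and diet were common to both groups and the labelled difference was the transgene. The AAV8-GFP mice carry the animal numbers 303, 311, 314 and 315, and the AAV8-AGXT mice 308, 309, 316 and 319, which is the order used for values below.

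Hepatocytes package triglyceride into very-low-density lipoprotein (VLDL) by lipidating apolipoprotein B as it is made, a step that needs the microsomal triglyceride transfer protein. High-density lipoprotein (HDL) forms around apolipoprotein A-I and collects cholesterol, and small exchangeable apolipoproteins move between particles and set how fast they are lipolysed and cleared. In fatty liver disease, export of VLDL is a route by which triglyceride leaves the hepatocyte.

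The 4 promoter stretches below are shown because they belong to the 3 genes that were called higher in AAV8-AGXT livers, *Apoa5*, *Apom* and *Mttp*, and to *Apoa4*, a chromosome 9 neighbour of *Apoa5* that was not called. Each is the 250 bases before the transcription start of RefSeq, on build GRCm38.p6, 5′ to 3′ on the strand of the gene. Capitals mark a match to a motif. For 6 of the 9 genes with a window the RefSeq start lies downstream of the first base of the gene in GENCODE M21, by 51943 bases in *Apoh*, 1550 in *Mttp*, 249 in *Apom*, 148 in *Apoa4*, 50 in *Apoa1* and 29 in *Apob*, so that these windows lie partly or wholly within the GENCODE gene.
*Apoa5*, chr9:46268383-46268632, plus strand: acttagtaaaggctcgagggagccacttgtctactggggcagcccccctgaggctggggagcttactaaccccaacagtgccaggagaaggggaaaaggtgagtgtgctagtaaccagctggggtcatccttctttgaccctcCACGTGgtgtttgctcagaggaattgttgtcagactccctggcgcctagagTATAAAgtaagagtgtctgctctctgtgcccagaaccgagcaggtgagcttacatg
*Apoa4*, chr9:46240594-46240843, plus strand: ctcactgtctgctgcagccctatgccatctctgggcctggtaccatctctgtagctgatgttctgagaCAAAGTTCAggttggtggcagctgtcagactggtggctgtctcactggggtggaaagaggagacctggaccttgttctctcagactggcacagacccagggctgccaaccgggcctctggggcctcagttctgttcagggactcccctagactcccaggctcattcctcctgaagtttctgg
*Apom*, chr17:35131802-35132051, minus strand: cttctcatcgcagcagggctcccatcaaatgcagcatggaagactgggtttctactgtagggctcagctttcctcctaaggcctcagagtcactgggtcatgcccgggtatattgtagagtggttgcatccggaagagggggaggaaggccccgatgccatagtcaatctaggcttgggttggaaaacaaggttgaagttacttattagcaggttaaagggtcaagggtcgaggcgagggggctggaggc
*Mttp*, chr3:138143419-138143668, minus strand: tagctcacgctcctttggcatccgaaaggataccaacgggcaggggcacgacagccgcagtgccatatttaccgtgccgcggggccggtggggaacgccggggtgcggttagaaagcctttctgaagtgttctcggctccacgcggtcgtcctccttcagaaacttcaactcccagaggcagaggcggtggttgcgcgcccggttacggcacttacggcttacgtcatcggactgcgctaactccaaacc

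A total of 7 motifs was searched on both strands of these windows, and they were picked after a wider set of letter strings had been looked at. RefSeq windows were found for 9 of the 10 genes, all but *Apoc3*. The *Apoa5* window held the E-box CACGTG, which occurs in 6.02% of 32851 windows of this length, and the TATA box TATAAA, which occurs in 12.4%. The *Apoa4* window held CAAAGTNCA, a string of the type bound by the hepatocyte nuclear receptor HNF4, present in 1.19% of windows. In the *Apom* and *Mttp* windows none of the 7 motifs was found. TATAAA was also found in *Apob* and *Apoa2*, TGTTTAC of the forkhead type (3.17% of windows) in *Apoa2* and *Apoh*, the nuclear receptor motif AGGTCA (14% of windows) in *Apoh*, and TTGCNNAA of the C/EBP type (9.56% of windows) in *Apob*. GTTAAT, present in 6.43% of windows, was found in none of the 9. A match describes the letters only, in a window set by the RefSeq start.

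Counts on genes reached 19747909 to 28780140 read pairs per AAV8-GFP library and 17095433 to 23940200 per AAV8-AGXT library, and the scarcest value among the 10 genes was 1360 counts (*Apom*, mouse 303). Spread between mice, rather than counting error, therefore limited their precision. Values are given as CPM (counts on the gene relative to all counts on genes, on a common scale) adjusted by TMM factors, which correct for differences in library composition. These factors were 1.021 to 1.137 in AAV8-GFP and 0.8305 to 1.001 in AAV8-AGXT libraries, with mice 308 and 319 lowest. The gene *Agxt* of the mouse had 148 to 180 CPM in AAV8-GFP and 201 to 405 CPM in AAV8-AGXT livers (log2 fold change 0.90, SE 0.22, edgeR adjusted p = 0.0489). Since the transgene is human, reads of the vector mapped to the mouse gene and reads of the mouse gene itself cannot be told apart. Defining hepatocyte genes were abundant in all 8 livers, at a summed 47760 to 60740 CPM in AAV8-GFP and 55990 to 78280 CPM in AAV8-AGXT mice.

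Of the 10 genes, 3 rose in AAV8-AGXT livers. *Apom* rose 2.25-fold (95% interval 1.61 to 3.16), *Apoa5* 1.54-fold (1.28 to 1.86) and *Mttp* 1.49-fold (1.20 to 1.85). The other 7 were not called in either direction, at an adjusted p under 0.05 in the edgeR quasi-likelihood test over all tested genes, which does not show that their levels were equal. Over all tested genes, 2.45% were called higher and 1.9% lower. These were 374 and 290 genes, against 144 and 857 with scaling by total counts and 254 and 298 with upper-quartile factors, and *Apom* and *Apoa5* were called higher under both of those. No member was called lower by edgeR, none had a lower value at an unadjusted p under 0.05, and DESeq2 called none lower either. A positive log2 fold change was found in 9 of the 10, against 52.3% of all tested genes, and the median was 0.41, against 0.02 over all tested genes.

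In 5 of the 10 genes (*Apob*, *Mttp*, *Apom*, *Apoa5* and *Apoh*) each AAV8-AGXT mouse lay above each AAV8-GFP mouse, and in none did it lie below. Among all tested genes, 8.93% were apart in this way with AAV8-AGXT higher and 7.63% with AAV8-AGXT lower. An unadjusted p under 0.05 was found in 6 members, all with higher values in AAV8-AGXT livers, against 13.5% of all tested genes in that direction. As a share of all counts on genes, unscaled, the 10 genes made up 6.46% to 7.84% in AAV8-GFP and 6.36% to 8.20% in AAV8-AGXT libraries, so the summed shares overlapped.

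**Figure D1:**
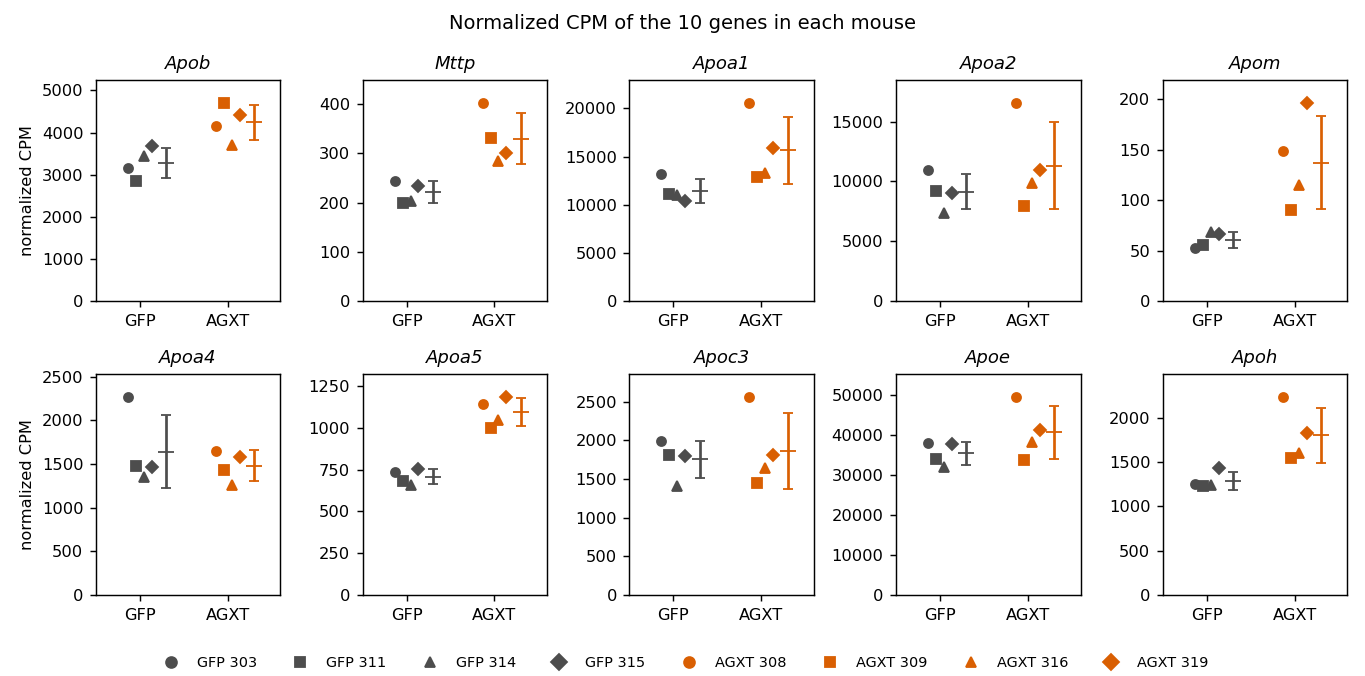
Normalized CPM (vertical axes, from 0, with a scale of its own for each gene) of the 10 genes in AAV8-GFP (grey) and AAV8-AGXT (orange) livers, 1 symbol per mouse, with the mean and SD of 4 mice beside them. The groups are apart in *Apob*, *Mttp*, *Apom*, *Apoa5* and *Apoh* and overlap in the other 5, and mouse 308 has the highest value of its group in 7 of the 10 panels.

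The core of VLDL is laid down by apolipoprotein B, the large non-exchangeable protein present once per particle, and by the lipid transfer subunit encoded by *Mttp*. *Mttp* (ENSMUSG00000028158, chr3:138089854-138144968, minus strand) had 245, 200, 204 and 235 CPM in the AAV8-GFP mice and 402, 331, 286 and 302 CPM in the AAV8-AGXT mice. The groups did not overlap, and mouse 308 stood highest. Means were 221 ± 22.3 and 330 ± 51.3 CPM (n = 4, ± SD), for a log2 fold change of 0.58 (SE 0.14) with an edgeR adjusted p of 0.0495. This call lay at the edge of the threshold. It was kept in 5 of 9 alternative fits and in none of the 8 fits that left out a mouse, where the adjusted p was 0.0543 to 0.169. The 5 include a fit with library sizes taken without the 20 most abundant genes. TMM factors were computed after that step and gave the values of the main fit again, so it is no separate support.

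*Apob* (ENSMUSG00000020609, chr12:7977648-8016835, plus strand) had 3171, 2853, 3440 and 3685 CPM in AAV8-GFP and 4167, 4691, 3696 and 4416 CPM in AAV8-AGXT livers. The groups were apart by a narrow gap, between mouse 315 and mouse 316. The means were 3287 ± 358 and 4243 ± 423 CPM (SD, n = 4 each), and the log2 fold change of 0.37 (SE 0.15, 95% interval 0.04 to 0.70) was not called by edgeR (adjusted p = 0.154). DESeq2 called it, at an adjusted p of 0.0337. DESeq2 called 7.08% of its tested genes higher and 6.93% lower, and it called 5 of the 10 members higher, adding *Apob* and *Apoh* to the 3 genes above.

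The partner of the transfer protein is protein disulfide isomerase, encoded by *P4hb*. It had 1502 ± 255 and 1472 ± 212 CPM (n = 4, ± SD), with a log2 fold change of −0.03 (95% interval −0.40 to 0.34, edgeR adjusted p = 0.933). Within each library, the log2 ratio of *Mttp* to *P4hb* counts averaged −2.75 ± 0.28 in AAV8-GFP and −2.16 ± 0.35 in AAV8-AGXT livers (SD, n = 4 each). The groups overlapped, since AAV8-GFP mouse 303 lay above AAV8-AGXT mouse 319, and the difference of 0.60 had an exact permutation p of 0.0571 (two-sided, adjusted p = 0.0952 over 10 ratios). All 10 pairs were chosen after the data had been seen, so these p-values describe the ratios only. The ratio of *Mttp* to *Apob* counts differed by 0.20 on the log2 scale (exact permutation p = 0.2, adjusted p = 0.25).

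Among the proteins of HDL, apolipoprotein A-I is the main structural protein and activates the enzyme that esterifies cholesterol, apolipoprotein A-II is its most abundant companion, and apolipoprotein M carries sphingosine-1-phosphate. *Apom* (ENSMUSG00000024391, chr17:35128997-35132050, minus strand) had 53.1, 55.3, 68.3 and 66.9 CPM in AAV8-GFP and 148, 89.8, 115 and 196 CPM in AAV8-AGXT livers. The groups were apart, and the AAV8-AGXT values spread widely, with mouse 319 highest and mouse 309 lowest. Means were 60.9 ± 7.81 and 137 ± 45.7 CPM (n = 4, ± SD), for a log2 fold change of 1.17 (SE 0.22, edgeR adjusted p = 0.0335). It had the largest fold change of the 10 genes, and it was the second lowest of them in level per kilobase.

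*Apoa1* (ENSMUSG00000032083, chr9:46228580-46230466, plus strand) had 13180, 11111, 10997 and 10412 CPM in AAV8-GFP and 20518, 12932, 13329 and 15858 CPM in AAV8-AGXT livers. The ranges overlapped through AAV8-GFP mouse 303 and AAV8-AGXT mouse 309, and mouse 308 was far above the other 7. The means were 11425 ± 1209 and 15659 ± 3489 CPM (SD, n = 4 each), and the log2 fold change of 0.45 (SE 0.19) was not called (edgeR adjusted p = 0.171).

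*Apoa2* (ENSMUSG00000005681, chr1:171225054-171226379, plus strand) had 10948, 9246, 7408 and 9008 CPM in AAV8-GFP and 16510, 7985, 9883 and 10954 CPM in AAV8-AGXT livers. The ranges overlapped, with mouse 308 highest and AAV8-AGXT mouse 309 below 3 of the AAV8-GFP mice. The log2 fold change of 0.31 (SE 0.24) was not called (edgeR adjusted p = 0.439). Without mouse 308 it was 0.06. The ratio of *Apom* to *Apoa1* counts was apart between the groups, with a difference of 0.68 on the log2 scale (exact permutation p = 0.0286, adjusted p = 0.0715), while that of *Apoa2* to *Apoa1* overlapped (difference −0.17, exact permutation p = 0.2, adjusted p = 0.25). Both pairs were among those chosen after the data had been seen.

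The exchangeable apolipoproteins of triglyceride-rich particles act on lipolysis and uptake. Apolipoprotein A-V promotes the action of lipoprotein lipase, apolipoprotein C-III opposes it and slows clearance, apolipoprotein A-IV is made with newly formed particles, and apolipoprotein E is the ligand by which remnants are taken up. *Apoa5* (ENSMUSG00000032079, chr9:46268633-46271919, plus strand) had 738, 680, 658 and 754 CPM in AAV8-GFP and 1140, 999.6, 1048 and 1182 CPM in AAV8-AGXT livers. The groups were far apart relative to their spread, which had a coefficient of variation of 6.46% and 7.63%. Means were 707 ± 45.7 and 1092 ± 83.4 CPM (n = 4, ± SD), for a log2 fold change of 0.63 (SE 0.12, edgeR adjusted p = 0.0344).

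*Apoc3* (ENSMUSG00000032081, chr9:46232933-46235636, minus strand) had 1991, 1815, 1415 and 1801 CPM in AAV8-GFP and 2558, 1450, 1640 and 1806 CPM in AAV8-AGXT livers. The ranges overlapped widely, and only mouse 308 lay above the AAV8-GFP range. The log2 fold change was 0.09 (95% interval −0.35 to 0.53, edgeR adjusted p = 0.819), and it turned negative without mouse 308 or mouse 314 and with scaling by total counts.

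*Apoa4* (ENSMUSG00000032080, chr9:46240696-46243459, plus strand) had 2265, 1476, 1356 and 1471 CPM in AAV8-GFP and 1650, 1436, 1255 and 1585 CPM in AAV8-AGXT livers. AAV8-GFP mouse 303 stood well above the other 7, whose ranges overlapped. The log2 fold change was −0.15 (95% interval −0.57 to 0.27, edgeR adjusted p = 0.655), the only negative one of the 10, and it was 0.05 without mouse 303.

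*Apoe* (ENSMUSG00000002985, chr7:19696109-19699188, minus strand) had the highest mean CPM of all tested genes, on a scale not corrected for length. It had 38017, 34124, 32022 and 37864 CPM in AAV8-GFP and 49526, 33853, 38353 and 41326 CPM in AAV8-AGXT livers. The ranges overlapped, and the log2 fold change of 0.20 (95% interval −0.22 to 0.61) was not called (edgeR adjusted p = 0.531). With total-count scaling it was −0.05.

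*Apoh* encodes beta2-glycoprotein I, a plasma protein that binds anionic phospholipids and is found on lipoproteins. *Apoh* (ENSMUSG00000000049, chr11:108343354-108414396, plus strand) had 1251, 1230, 1236 and 1435 CPM in AAV8-GFP and 2229, 1546, 1600 and 1832 CPM in AAV8-AGXT livers. The groups were apart, with 3 AAV8-GFP mice close together and mouse 315 above them. The means were 1288 ± 98.6 and 1802 ± 311 CPM (SD, n = 4 each), and the log2 fold change of 0.48 (SE 0.15, 95% interval 0.14 to 0.82) was not called by edgeR (adjusted p = 0.0874) but was by DESeq2 (adjusted p = 0.0102).

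**Figure D2:**
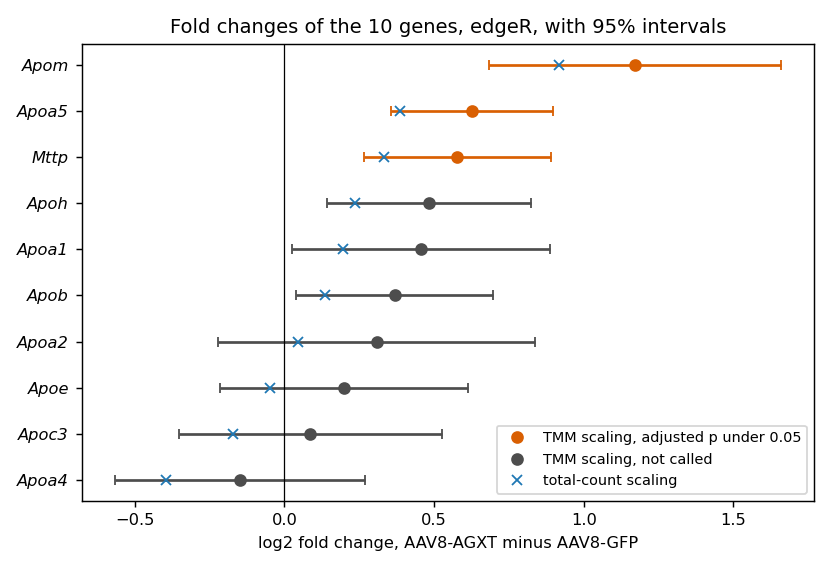
Log2 fold change of AAV8-AGXT over AAV8-GFP (horizontal axis) for the 10 genes, from the edgeR test with TMM scaling (circles, with 95% intervals, orange where called) and with scaling by total counts (crosses). The crosses lie to the left of the circles, as does the median of all genes, which shifts by −0.24, and *Apom*, *Apoa5* and *Mttp* have the largest values on both scales.

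The 3 calls depended on the mice included. *Apom* and *Apoa5* were each called in 9 of 9 alternative fits of all 8 mice and in 3 of the 8 fits that left out a mouse, namely those without 315, 309 or 316. The 9 include the fit with library sizes taken without the 20 most abundant genes, which repeats the main fit and is no separate support. No member was called without 303, 311, 314, 308 or 319. The log2 fold change over the fits without 1 mouse was 0.95 to 1.31 for *Apom*, 0.57 to 0.66 for *Apoa5* and 0.46 to 0.64 for *Mttp*. Without mouse 311, edgeR called 2 of all tested genes higher and none lower, and without mouse 319 it called 12 higher and 2 lower, against 374 and 290 in all 8 mice.

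**Figure D3:**
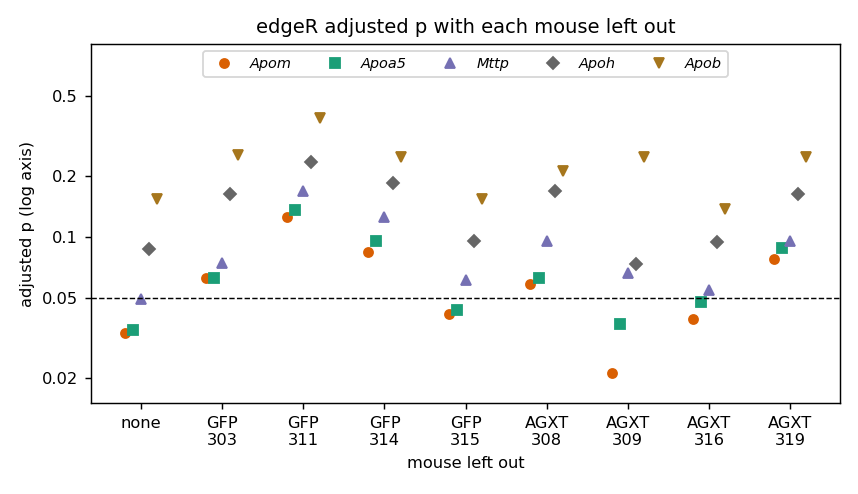
Adjusted p of the edgeR test (vertical axis, log scale) for 5 genes with no mouse or each mouse left out (horizontal axis), with the threshold of 0.05 as a dashed line. *Apom* and *Apoa5* lie below the line without 315, 309 or 316, and *Mttp* lies above it in each of the 8 fits without 1 mouse.

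Neighbours within a single stretch of chromosome 9 are *Apoa1*, *Apoc3*, *Apoa4* and *Apoa5*, in this order, and of these *Apoa5* was called and the others were not. Their ratios within a library do not depend on the scaling between libraries, and the 10 pairs tested here were chosen after the data had been seen. The log2 ratio of *Apoa5* to *Apoa4* counts was −1.62, −1.12, −1.04 and −0.96 in the AAV8-GFP and −0.53, −0.52, −0.26 and −0.42 in the AAV8-AGXT mice. Each AAV8-AGXT value was higher, with a difference of 0.75 between means. The log2 ratio of *Apoa4* to *Apoa1* was lower in AAV8-AGXT livers by 0.56, and that of *Apoc3* to *Apoa1* by 0.37, with no overlap between the groups in either. Each of these ratios had the smallest exact permutation p that 4 mice against 4 allow, 0.0286 (two-sided). The adjusted p of each was 0.0715 over the 10 ratios, so none passed 0.05 after adjustment. Several pairs share a gene, so the ratios are not independent of each other and do not count as separate findings.

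The ratio of *Apoa5* to *Apoc3*, which act in opposite directions on lipolysis, averaged −1.30 ± 0.15 in AAV8-GFP and −0.74 ± 0.29 in AAV8-AGXT livers (log2, SD, n = 4 each). Mouse 308 lay within the AAV8-GFP range and the other 3 AAV8-AGXT mice lay above it (exact permutation p = 0.0571, adjusted p = 0.0952). *Apoa5* to *Apoa1* (difference 0.19, exact permutation p = 0.286, adjusted p = 0.318) and *Apoa4* to *Apoc3* (difference −0.19, exact permutation p = 0.343, adjusted p = 0.343) overlapped. Each of the 10 differences kept its sign without any 1 mouse.

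**Figure D4:**
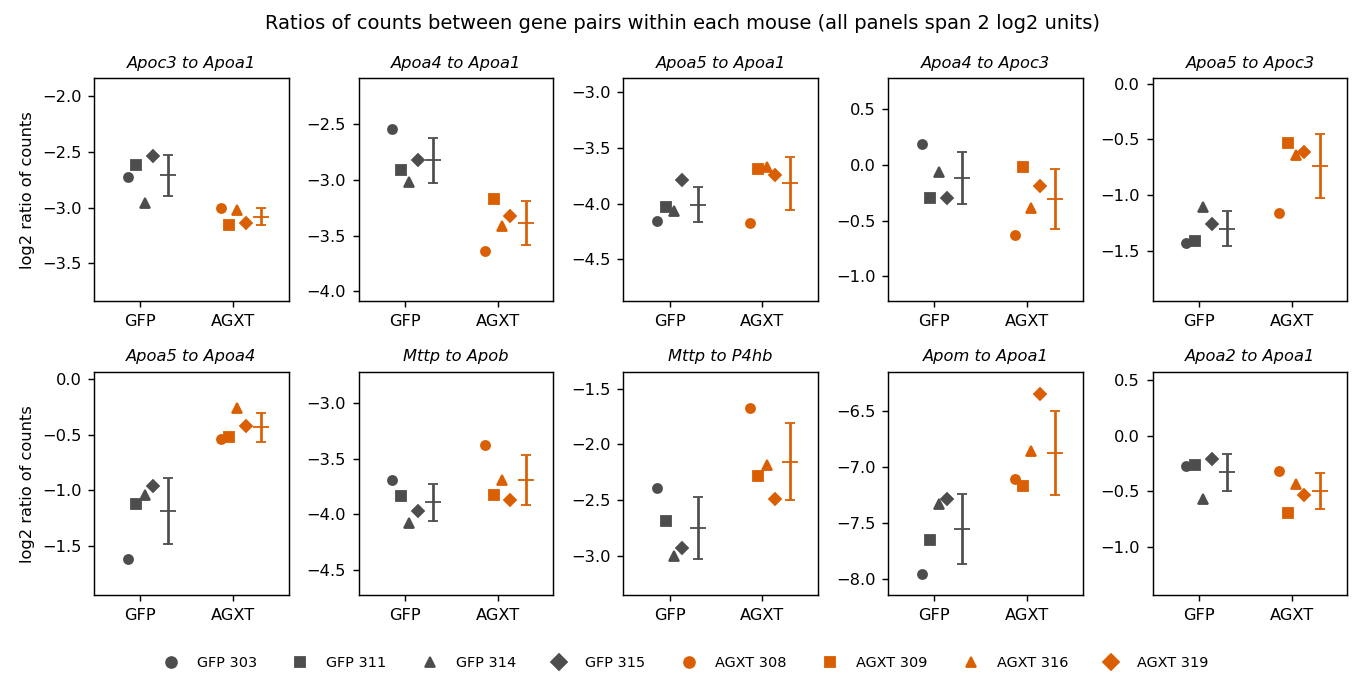
Log2 ratio of counts within each mouse (vertical axes, each spanning 2 units) for 10 gene pairs in AAV8-GFP (grey) and AAV8-AGXT (orange) livers, 1 symbol per mouse, with the mean and SD of 4 mice. The groups are apart for *Apoc3* to *Apoa1*, *Apoa4* to *Apoa1*, *Apoa5* to *Apoa4* and *Apom* to *Apoa1*.

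Levels of different genes can be set side by side only after correction for length. The length used was that of all annotated exons of a gene merged, which can exceed that of the transcript expressed, so the order depends on the annotation. In CPM per kilobase of exon the order in AAV8-GFP livers was *Apoa2* (17044 ± 2698), *Apoe* (16607 ± 1375), *Apoa1* (9243 ± 979), *Apoc3* (1731 ± 240), *Apoa4* (905 ± 231), *Apoh* (808 ± 61.8), *Apoa5* (280.5 ± 18.1), *Apob* (236 ± 25.7), *Apom* (60.1 ± 7.71) and *Mttp* (35.6 ± 3.59; SD, n = 4 each). Neighbours in that order whose ranges overlapped were *Apoa2* and *Apoe*, *Apoa4* and *Apoh*, and *Apoa5* and *Apob*. In AAV8-AGXT livers *Apoh* (1130 ± 195) had a higher mean than *Apoa4* (816 ± 96.7), and the other 8 kept their places by their means.

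Certain mice were high in many of the 10 genes at once. In the AAV8-AGXT group mouse 308 had the highest value for 7 genes and mouse 309 the lowest for 7, and in the AAV8-GFP group mouse 303 had the highest for 6 and mouse 314 the lowest for 5. Mouse 308 also had the lowest share of tallied read pairs on genes (56.3%, against 62.4% to 69.1% in the others) and the lowest TMM factor. Its summed markers of macrophages (292 CPM), stellate cells (238.8), cholangiocytes (106.1) and T and NK cells (2.485) were the lowest of the 8 mice. Its summed endothelial markers (240.2 CPM) were the highest. Whether these had a part in its values was not tested.

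Among genes known to act beside the 10, no other apolipoprotein was called in either direction by edgeR. Of 18 genes listed with them, 16 were tested, with a median log2 fold change of 0.26. The list includes the paraoxonase genes *Pon1* and *Pon3*, which do not encode apolipoproteins. These 2 alone had an unadjusted p under 0.05 by edgeR, both with higher values. The log2 fold change was 0.68 for *Pon1* (edgeR adjusted p = 0.0502) and 0.29 for *Pon3* (edgeR adjusted p = 0.17). DESeq2 called 1 gene of the list higher. *Apoc1*, which lies beside *Apoe*, had 4999 ± 598 and 5436 ± 1599 CPM (log2 fold change 0.12, edgeR adjusted p = 0.763). *Apoc2*, the activator of lipoprotein lipase, had 4.68 ± 0.82 and 4.73 ± 2.76 CPM (log2 fold change 0.01, edgeR adjusted p = 0.996). Its exons are shared with a longer gene on the same strand, so its counts are uncertain.

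Of 21 genes of VLDL assembly and export, which help apolipoprotein B fold and carry the particle from the endoplasmic reticulum to the Golgi, none was called by edgeR. Their median log2 fold change was 0.16, 5 had an unadjusted p under 0.05, all higher, and DESeq2 called 4 higher. Of the 3 genes of *Apob* mRNA editing, which yields the short form of the protein, none was called by edgeR, 2 had an unadjusted p under 0.05 and higher values, and DESeq2 called 1 higher. The editing enzyme itself, *Apobec1*, had 49.4 ± 4.31 and 37.1 ± 12.9 CPM (SD, n = 4 each; log2 fold change −0.41, edgeR adjusted p = 0.258).

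Of 13 genes that remodel particles in plasma, 2 rose and none fell by edgeR, with a median log2 fold change of 0.16. *Gpld1*, a phospholipase that circulates with HDL, rose from 57.9 ± 11.4 to 119 ± 26.5 CPM (log2 fold change 1.04, SE 0.19, edgeR adjusted p = 0.0312). *Lipg*, the endothelial lipase that hydrolyses HDL phospholipids, rose from 6.30 ± 3.22 to 17.6 ± 5.22 CPM (log2 fold change 1.47, SE 0.36, edgeR adjusted p = 0.0498). The *Lipg* call lay at the edge of the threshold, and the gene was scarce, with a lowest value of 76 counts. Of the 13, 4 were higher and 1 was lower at an unadjusted p under 0.05, and DESeq2 called 3 higher and 1 lower. The lower one by edgeR was *Lpl*, the gene of lipoprotein lipase, named after its values were seen. It had 220 ± 67.2 and 111 ± 41.2 CPM (SD, n = 4 each), with overlapping groups, and was not called (log2 fold change −0.98, edgeR adjusted p = 0.0756).

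None of 16 lipoprotein receptors and their regulators was called by edgeR or by DESeq2, and 3 had an unadjusted p under 0.05, all higher. Their median log2 fold change was 0.19.

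Of 25 regulators of apolipoprotein genes, 3 rose and none fell by edgeR, and the median log2 fold change of the 25 was 0.44. *Ppara*, the fatty acid sensing nuclear receptor, rose from 43.3 ± 5.06 to 80.1 ± 22.1 CPM (log2 fold change 0.89, SE 0.19, edgeR adjusted p = 0.0376). *Creb3l3*, an endoplasmic reticulum factor that activates genes of triglyceride metabolism, rose from 396 ± 47.1 to 645 ± 135 CPM (log2 fold change 0.70, SE 0.17, edgeR adjusted p = 0.0486). *Cebpa*, a factor of hepatocyte differentiation, rose from 353 ± 16.8 to 499 ± 39.2 CPM (log2 fold change 0.50, SE 0.11, edgeR adjusted p = 0.0429). Without mouse 311 these 3 cannot all have been called, since edgeR then called only 2 of all tested genes higher.

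*Hnf4a*, the nuclear receptor on which many apolipoprotein genes depend, had 551 ± 61.9 and 758 ± 73.9 CPM (log2 fold change 0.46, SE 0.13). Its groups were apart but it was not called (edgeR adjusted p = 0.0765). Among the 25 regulators, 13 had an unadjusted p under 0.05 and higher values and 1 had a lower value, and DESeq2 called 7 higher and 1 lower.

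**Figure D5:**
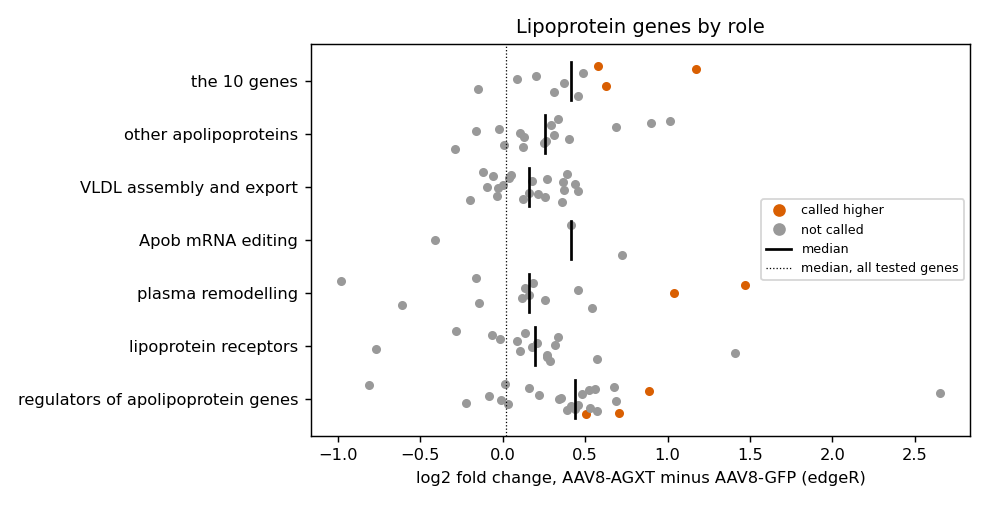
Log2 fold change of AAV8-AGXT over AAV8-GFP (horizontal axis) for each tested gene of the 10 and of 6 lists of lipoprotein genes (vertical axis), 1 point per gene, orange where called higher by edgeR. Black bars mark the medians, 0.41 for the 10 genes and 0.44 for their regulators, and the dotted line marks the median of all tested genes, 0.02.

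Markers of cell types moved between the groups as well. In bulk liver, fewer cells of a type and less RNA per cell cannot be told apart. Of 10 hepatocyte genes, 2 were called higher by edgeR and none lower, with *Tdo2* at a log2 fold change of 1.39 (adjusted p = 0.0279) and *Cps1* at 0.96 (adjusted p = 0.0279), and the list had a median log2 fold change of 0.30. The 6 cholangiocyte markers all had lower values in AAV8-AGXT livers, with a median of −1.24 and summed levels of 252.5 to 709.5 CPM in AAV8-GFP against 106 to 301 CPM in AAV8-AGXT mice. None of them was called by edgeR, though all 6 had an unadjusted p under 0.05 and DESeq2 called 4 lower. *Spp1*, named after its values were seen, made up most of the cholangiocyte sum in each mouse. It had 484 ± 194 and 157 ± 84.8 CPM (SD, n = 4 each; edgeR adjusted p = 0.0704), so the sums mainly follow this gene.

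Of 8 stellate cell markers, *Acta2* was called lower by edgeR (log2 fold change −0.99, adjusted p = 0.0427) and none higher, with a median log2 fold change of −0.59 and sums of 429 to 703 and 239 to 519.8 CPM. An unadjusted p under 0.05 was found in 5 of the 8, all lower, DESeq2 called 2 lower, the groups were apart in 4, all lower, and 2 had a positive log2 fold change. *Col1a1* (log2 fold change −1.77, edgeR adjusted p = 0.0769) and *Col1a2* (−1.34, adjusted p = 0.107), named after their values were seen, had larger differences than *Acta2* and were not called. No macrophage marker of 11 was called by edgeR, 2 had an unadjusted p under 0.05 in each direction, DESeq2 called 1 higher and 2 lower, and the sums were 652 to 1124 and 292 to 1136 CPM. Endothelial markers summed to 125 to 188.5 and 134.5 to 240.2 CPM, with none of 6 called by edgeR or DESeq2 and none at an unadjusted p under 0.05. Markers of T and NK cells summed to 6.09 to 12.3 and 2.48 to 8.27 CPM, and edgeR called none of 5, with 1 lower at an unadjusted p under 0.05 and 1 lower by DESeq2. Those of B cells summed to 3.75 to 9.12 and 3.73 to 6.42 CPM, with none of 4 called by edgeR or DESeq2 and none at an unadjusted p under 0.05. No marker in these lists was at 0 counts in any mouse. Their part in the values of the 10 genes was not tested.

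Of the 10 genes, 4 share exon bases with another gene, in the annotation GENCODE M21. *Mttp* shares 7.36% of its exon length with *Trmt10a*, *Apoa5* 20.8% with *Gm47544*, *Apoa4* 34.9% with *Gm47528*, and *Apoh* 1.88% with *Prkca*, each on the opposite strand. The strand option of the counting was not given in the sources used here, so reads from the shared stretches are uncertain. Of the other genes named above, *Gpld1*, *Cebpa* and *Hnf4a* also overlap a neighbouring or antisense gene and carry the same uncertainty. *Gm47528* had 320 to 905 counts and *Gm47544* had 0 in all 8 mice.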

How the data were processed

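Libraries were made by the authors from total liver RNA with a stranded mRNA kit, 1 per mouse. Per the paper's methods, reads were trimmed with Trimmomatic 0.35, mapped with HISAT2 2.1.0.13 to GRCm38 and counted on genes with HTSeq. The deposited values are raw counts per Ensembl gene, without normalization. Of 52636 genes, 52489 were matched to GENCODE M21 on the same build. Mice were grouped by the treatment in the sample labels, and none was left out. Tests were run in R 4.3.3 with edgeR 4.0.16 (filterByExpr, TMM, quasi-likelihood test, Benjamini-Hochberg adjustment over 15248 genes, prior count 0.125). DESeq2 1.42.0, limma 3.58.1 (voom), other scalings and filters, and each mouse left out were the alternatives. Ratios were log2 of counts plus 0.5 and were tested by exact permutation over 70 arrangements. The common biological coefficient of variation was 23.3%. The edgeR test was checked on simulated data. The 10 genes, the lists, the ratios and the motifs were chosen with earlier results of these data known. Named genes of other lists were up to 3 called genes of smallest p per list and direction, plus P4hb, Apoc1, Apoc2, Apobec1, Hnf4a and Agxt. Outside this rule, Pon1, Pon3, Lpl, Spp1, Col1a1 and Col1a2 were named after their values were seen. Some genes of this rule are not reported here.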

Additional observations from a re-analysis of the deposited data

Results flagged for a closer look

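In 20 groups of 4 values (10 genes in 2 groups of mice), 2 had a mouse far from the other 3, and chance marks about 1 in 20. *Apoa4* in AAV8-GFP mouse 303 had 2265 CPM, at a gap of 0.869 of the range of its group, above the critical value of Dixon's test. *Apoh* in AAV8-GFP mouse 315 had 1435 CPM, at a gap of 0.895 of the range.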

How the results depend on the processing

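Of the 10 genes, 3 were called higher and none lower by edgeR. DESeq2 called 5 higher, and with each mouse left out in turn 0 to 2 were called higher. Over all tested genes, 374 were higher and 290 lower with edgeR, 1077 and 1054 with DESeq2, 144 and 857 with scaling by total counts, and 254 and 298 with upper-quartile factors, so the share of calls that were higher was 56.3%, 50.5%, 14.4% and 46%. With each mouse left out, 2 to 379 genes were called higher and 0 to 325 lower. With total counts the median log2 fold change of all genes moved by −0.237. Relative to the median of all genes, *Apom* was then 1.14, *Apoa5* 0.61, *Mttp* 0.55, *Apoe* 0.17 and *Apoc3* 0.05. Without that subtraction *Apoc3* was −0.172 and *Apoe* −0.048. *Apoc3* was also −0.03 without AAV8-GFP mouse 314 and −0.12 without AAV8-AGXT mouse 308, and *Apoa4* was 0.048 without AAV8-GFP mouse 303. Over the 8 fits without 1 mouse, *Apoc3* ranged from −0.12 to 0.17 and *Apoa4* from −0.25 to 0.048. The causes were not tested. *Mttp* lost its call with size factors of the DESeq2 type in edgeR, upper-quartile factors, total counts or at least 10 counts in every mouse (adjusted p 0.0503 to 0.0867). No paired analysis was possible because the groups share no animal number. With 4 mice per group and a common coefficient of variation of 23.3% between mice, the spread between mice sets the precision.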
